A study of Mus musculus with 12 samples.

Results

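DNA replication and mitosis genes were compared among 4 mouse lines of iPS (induced pluripotent stem) cells. The list holds 38 genes in a pair of sets, 18 that act in S phase, when DNA is copied, and 20 that act in mitosis, when the copies are separated. A gene was measured through the probe sets that the array annotation assigns to it alone, and where several were assigned, the brightest on average was taken. In this way 37 of the 38 genes were measured, among 19938 genes measured in all. The cyclin gene Ccnb1 had no probe set of its own and was left out, so the mitosis set holds 19 measured genes.

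The 4 lines are LiPS-45, LiPS-57, LiPS-47 and LiPS-50, and each was represented by 3 cultures with 1 Affymetrix array per culture, which makes 12 arrays. All 4 lines had the same origin, per the labels: embryonic fibroblasts of the mouse strain C57BL/6J, reprogrammed with 3 factors and kept in the medium used for embryonic stem cells. LiPS-45 and LiPS-57 are labelled as competent for tetraploid complementation and LiPS-47 and LiPS-50 as without that competence. In tetraploid complementation, stem cells are joined to an embryo whose own cells have been made tetraploid, and a mouse formed in this way comes from the stem cells. The series asked how expression differs between lines with and without that competence. Each line is 1 derivation, so a property of a line and a property of its competence class can be separated only over 2 lines against 2 lines. The labels call the cultures biological repeats and say no more about them, so p-values measure the spread between these cultures, which may be technical in part.

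A cell licenses its replication origins by loading the ring of MCM2 to MCM7 proteins with CDC6 and CDT1, and it fires them when cyclin E and CDK2 are active. E2F transcription factors drive many genes of this step. Later in the cycle cyclin A, cyclin B and CDK1 bring the cell into mitosis, where Aurora and Polo-like kinases, kinesin motors and the spindle checkpoint move the chromosomes apart. Pluripotent mouse cells divide quickly, with a short G1 phase, and carry high levels of many of these RNAs throughout the cycle.

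All values are log2(intensity + 1) of the deposited probe set intensities, so a difference of 1 is a 2-fold difference. The added 1 makes the scale understate changes of dim genes. All 37 measured genes lay above the 40th percentile of probe set means, and none of them lies on the X chromosome. Levels of different genes are not set against each other, because each probe set has its own brightness. Correlation between arrays of the same line lay between 0.9957 and 0.9974, and at most 0.607% of the values were identical between any 2 arrays. The precision is limited by the number of arrays, 3 per line.

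The markers of pluripotent cells were present in each line: 12 of 12, among them Pou5f1, Sox2 and Nanog, lay above the 40th percentile, and their summed intensity ranged from 22556 to 23978 over the 12 cultures. Single markers differed in both directions. In limma's test 5, 4 and 3 of the 12 were lower in LiPS-50 than in LiPS-45, LiPS-57 and LiPS-47, and 2, 2 and 3 were higher. Of all probe sets, 8.30%, 7.48% and 7.31% were called lower in LiPS-50 and 8.18%, 8.16% and 8.48% higher. Markers of fibroblasts, the cells of origin and the usual feeder cells, set LiPS-50 apart from the other lines. The summed intensity of 31 such markers was 38829 to 43637 in LiPS-50 and 24103 to 33172 in the 9 cultures of the other lines. Of the 31, 29 lay above the 40th percentile in each of LiPS-45, LiPS-57 and LiPS-47 and 30 in LiPS-50. Their lowest single intensity was 14.15, where the lowest value of the whole table was 3.06. In limma's test 29, 28 and 29 of the 31 were higher in LiPS-50 than in LiPS-45, LiPS-57 and LiPS-47, and 0, 0 and 1 were lower. The red blood cell markers Hba-a1 and Hbb-b1 had no probe set of their own, so red blood cells were not examined. Of 4 measured markers of white blood cells and macrophages, 0 passed that test against LiPS-50. An unadjusted p under 0.05 was found for 0, 1 and 1 of them, against 6299, 5985 and 6038 of all 19938 genes. In each line 1 of these 4 lay above the 40th percentile.

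Promoters of members from each set are shown first, because the sets differ in the letters they carry near the gene start. RefSeq promoters of the build GRCm38.p6, each from 250 bases before to 50 bases after the start, were found for 29 of the 37 measured genes. The genes with no entry were Mcm4, Gmnn and Ccne2 of the S phase set and Ccna2, Cdc25c, Incenp, Aurkb and Kif20a of the mitosis set. The stretches below are the last 180 bases before the start, 5′ to 3′ in the direction of the gene. Capitals mark the 3 kinds of motif that were searched on both strands. E2F letters are TTCCCGC, the variant TTGGCGC, then also TTCGCGC and, as the last form, TTGCCGC, the core that E2F factors are known to bind. CHR letters, for the cell cycle genes homology region found near the start of many mitotic genes, are TTTGAA or TTTAAA. The letters CCAAT are those read by the factor NF-Y. TTTAAA is its own reverse complement and was counted once, and E2F matches can overlap each other. From the S phase set come Mcm5 (chr8:75109329-75109508, + strand), Mcm7 (chr5:138171884-138172063, - strand) and Cdc25a (chr9:109875399-109875578, + strand).
Mcm5: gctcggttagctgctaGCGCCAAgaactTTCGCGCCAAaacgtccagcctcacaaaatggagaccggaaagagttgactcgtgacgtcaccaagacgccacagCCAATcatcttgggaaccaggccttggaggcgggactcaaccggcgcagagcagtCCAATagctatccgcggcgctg
Mcm7: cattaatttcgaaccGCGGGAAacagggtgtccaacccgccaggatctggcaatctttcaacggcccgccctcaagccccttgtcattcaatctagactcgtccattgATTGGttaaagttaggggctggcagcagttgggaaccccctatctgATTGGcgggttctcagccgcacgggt
Cdc25a: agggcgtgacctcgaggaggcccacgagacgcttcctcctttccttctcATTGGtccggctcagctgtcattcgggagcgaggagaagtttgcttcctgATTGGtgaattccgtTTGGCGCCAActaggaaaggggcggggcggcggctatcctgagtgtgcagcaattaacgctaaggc
From the mitosis set come Plk1 (chr7:122159255-122159434, + strand), Kif11 (chr19:37376202-37376381, + strand), Mki67 (chr7:135716380-135716559, - strand) and Cdk1 (chr10:69352913-69353092, - strand), of which Mki67 and Cdk1 are the mitosis members that also hold E2F letters.
Plk1: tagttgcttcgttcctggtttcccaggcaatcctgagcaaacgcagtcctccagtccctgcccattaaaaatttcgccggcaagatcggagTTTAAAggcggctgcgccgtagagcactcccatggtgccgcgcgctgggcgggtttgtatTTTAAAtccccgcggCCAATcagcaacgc
Kif11: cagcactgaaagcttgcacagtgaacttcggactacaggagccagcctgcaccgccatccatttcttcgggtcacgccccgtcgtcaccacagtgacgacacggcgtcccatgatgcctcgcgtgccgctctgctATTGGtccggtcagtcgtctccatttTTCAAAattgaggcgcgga
Mki67: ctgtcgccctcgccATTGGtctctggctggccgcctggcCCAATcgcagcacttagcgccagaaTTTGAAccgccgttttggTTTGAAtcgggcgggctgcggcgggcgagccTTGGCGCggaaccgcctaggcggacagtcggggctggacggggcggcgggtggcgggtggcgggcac
Cdk1: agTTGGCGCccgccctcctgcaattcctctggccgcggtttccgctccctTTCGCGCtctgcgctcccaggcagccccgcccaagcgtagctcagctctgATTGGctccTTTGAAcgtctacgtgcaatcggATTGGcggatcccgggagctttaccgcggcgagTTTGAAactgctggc

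Members were counted by gene, with a match in any of its promoters, and the whole table was counted by promoter. Over the whole windows, E2F letters stood in promoters of 10 of 15 genes of the S phase set (66.7%) and 2 of 14 of the mitosis set (14.3%). The share of all 32851 promoters in the table was 9.6%. CHR letters were distributed the other way, with 4 of 15 (26.7%) in the S phase set, 11 of 14 (78.6%) in the mitosis set and 27.6% of all promoters. CCAAT letters were frequent in both, in 10 of 15 (66.7%) and 12 of 14 (85.7%), against 37.4% of all promoters. A match describes the letters and is not a binding site shown in these cells, and a promoter without a match says only that these letters are not in its window.

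Both sets were lower in LiPS-50 than in each of the other 3 lines, by small amounts. Against LiPS-45, LiPS-57 and LiPS-47, the median difference of the S phase set was 0.12, 0.21 and 0.17 on the log2 scale, and that of the mitosis set was 0.22, 0.21 and 0.23. The median over all 19938 genes was -0.013, -0.0068 and 0.0083 in the same comparisons. Of 18 S phase genes, 15, 16 and 17 had a difference above 0, and of 19 mitosis genes, 19, 18 and 19 did. Over all 19938 genes, 9390, 9631 and 10398 had a difference above 0. The 3 comparisons share the LiPS-50 arrays, so their values stand side by side and do not count as 3 separate observations. Centring each array on its median raised these medians to 0.17, 0.26 and 0.20 in the S phase set and to 0.27, 0.26 and 0.26 in the mitosis set. Some other settings that keep all cultures lowered them, at the lowest to 0.11, 0.20 and 0.15 in the S phase set. In the mitosis set the lowest were 0.18, 0.19 and 0.21.

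Individually, a gene was called when its adjusted p was under 0.05 in limma's test with Benjamini-Hochberg adjustment over all 28939 probe sets. Against LiPS-50, LiPS-45 was higher in 6 of 18 S phase genes and 11 of 19 mitosis genes, beside 8.30% of all probe sets called higher. LiPS-57 was higher than LiPS-50 in 9 of 18 and 8 of 19, beside 7.48% of all probe sets. LiPS-47 was higher than LiPS-50 in 5 of 18 and 11 of 19, beside 7.31%. In each of these comparisons 0 members were called lower, while 8.18%, 8.16% and 8.48% of all probe sets were. With quantile normalization 1 member, E2f1, was called lower in LiPS-45 than in LiPS-50 (adjusted p = 0.0444). The folds among called members were small, from 1.13 for Mcm7 to 1.45 for Ccne2 in the S phase set and from 1.13 for Aurka to 1.34 for Cdc25c in the mitosis set.

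Several of these counts fell when 1 culture was left out. Such a fit has fewer arrays, so a call near the threshold can end while its difference is unchanged. The part of fewer arrays in the lower counts was not tested, and the share of all probe sets called in these fits is not given here. For LiPS-45 against LiPS-50 the S phase count was 1 without LiPS-45 replicate 3, 3 without its replicate 1 or 2 and 2 without any 1 of the LiPS-50 cultures, and the mitosis count was 7 without LiPS-45 replicate 3. For LiPS-57 the S phase count was 4 without its replicate 1 or 2, and for LiPS-47 it was 3 without its replicate 1 or 3 or LiPS-50 replicate 2, and 2 without LiPS-50 replicate 1 or 3. Of the called differences, 7 of 20 in the S phase set and 23 of 30 in the mitosis set were called without any 1 culture.

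**Figure D1:**
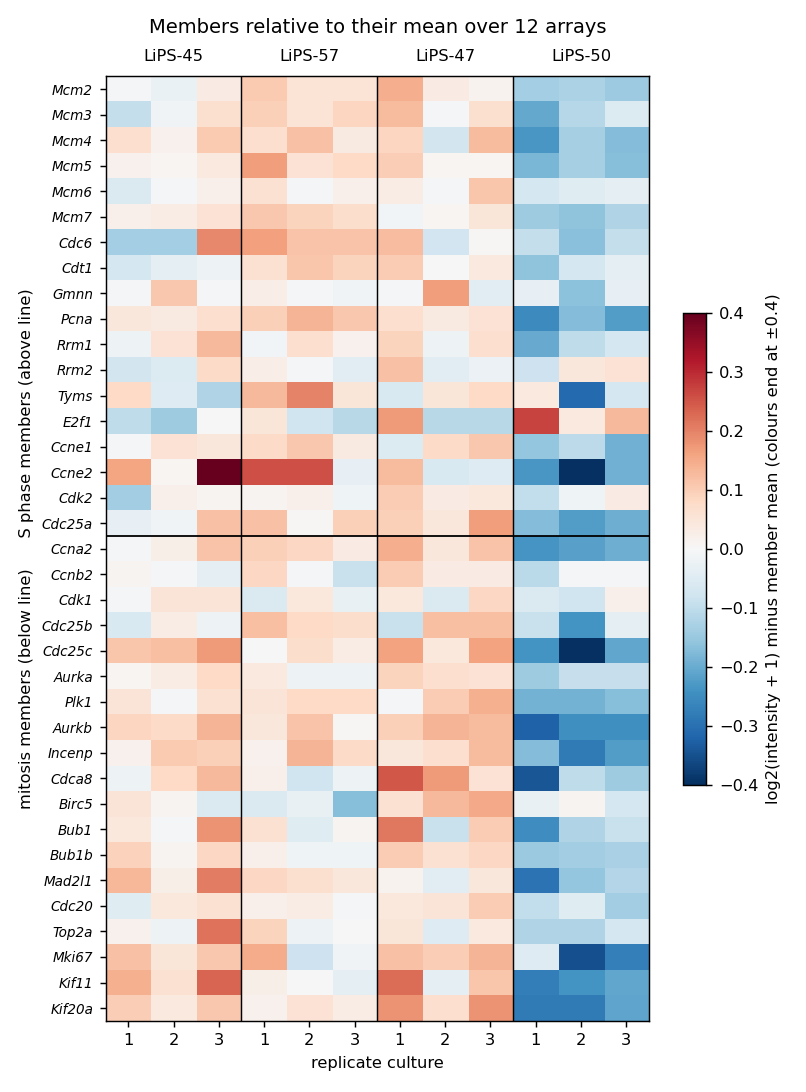
Each of the 37 measured genes (one per line of the map) in each of the 12 cultures (columns, grouped by iPS line), coloured by its log2(intensity + 1) minus that gene's mean over the 12 arrays, with colours ending at 0.4 either way. The LiPS-50 columns are mostly blue in both sets, E2f1 is red there, and Rrm2, Ccnb2 and Cdk1 show little contrast.

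The same pattern can be read from the cultures without a fold. In 9 of 18 S phase genes and 13 of 19 mitosis genes the 3 LiPS-50 cultures lay below all 9 cultures of the other lines, and in 0 genes of either set they lay above all 9. Over all probe sets the shares were 9.54% below and 8.81% above. The S phase genes with this separation were Mcm2, Mcm4, Mcm5, Mcm7, Pcna, Rrm1, Ccne1, Ccne2 and Cdc25a. Those of mitosis were Ccna2, Cdc25c, Aurka, Aurkb, Incenp, Cdca8, Plk1, Bub1b, Mad2l1, Cdc20, Top2a, Kif11 and Kif20a. Because the arrays carry RNA of whole cultures, fewer cells of a type and less RNA per cell cannot be told apart. The higher fibroblast markers move with this result, and their part in it was not tested.

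Among the 6 subunits of the replicative helicase, differences from LiPS-50 were all above 0 and ranged from 0.041 to 0.26. Mcm4 read 10.18, 10.13 and 10.22 in LiPS-45, 10.18, 10.23 and 10.15 in LiPS-57, 10.20, 10.04 and 10.24 in LiPS-47 and 9.88, 9.98 and 9.94 in LiPS-50. The lowest Mcm4 value of the other lines, LiPS-47 replicate 2, was close above the highest of LiPS-50. LiPS-50 was lower by 1.19-fold than LiPS-45 (adjusted p = 0.0212), by 1.19-fold than LiPS-57 (adjusted p = 0.0177) and by 1.17-fold than LiPS-47 (adjusted p = 0.0315), each difference with an SE of 0.065.

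Mcm5 was 10.21, 10.20 and 10.23 in LiPS-45, 10.36, 10.25 and 10.27 in LiPS-57, 10.29, 10.20 and 10.20 in LiPS-47 and 10.01, 10.06 and 10.02 in LiPS-50. LiPS-50 did not overlap with the other lines, and the Mcm5 folds over LiPS-50 were 1.13, 1.20 and 1.14 (adjusted p = 0.0443, 0.00756 and 0.0323). For Mcm7, the values were 10.62, 10.63 and 10.66 in LiPS-45, 10.71, 10.69 and 10.67 in LiPS-57, 10.59, 10.61 and 10.65 in LiPS-47 and 10.46, 10.44 and 10.48 in LiPS-50. LiPS-50 lay below every other culture, with folds of 1.13, 1.18 and 1.12 (adjusted p = 0.0322, 0.00769 and 0.0554), so the difference from LiPS-47 was not called. Mcm2 was called against LiPS-57 and LiPS-47 (1.16-fold and 1.15-fold, adjusted p = 0.0230 and 0.0265), and its fold of 1.10 against LiPS-45 was not (adjusted p = 0.122). Mcm3 and Mcm6 were called in none of the 3 comparisons, with differences of 0.11, 0.20 and 0.18 for Mcm3 and of 0.041, 0.081 and 0.10 for Mcm6.

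Of the 10 helicase calls, 8 were ended by leaving out a single culture, with 3 to 10 of the 12 cultures doing so per call. The Mcm4 calls were lost without LiPS-50 replicate 1 and, for LiPS-45 and LiPS-47, replicate 3, without LiPS-45 replicate 1 or 3, LiPS-57 replicate 1 or 2 and LiPS-47 replicate 1 or 3 (adjusted p up to 0.0806, 0.0678 and 0.120). The Mcm2 calls were lost without any 1 culture of LiPS-50 or LiPS-57 and without LiPS-47 replicate 1 (adjusted p up to 0.0824 and 0.0946). Any 1 culture of LiPS-50 or of the line compared with it ended the Mcm5 calls of LiPS-45 and LiPS-47 and the Mcm7 call of LiPS-45 (adjusted p up to 0.122, 0.106 and 0.101), and for Mcm5 in LiPS-45 so did replicates 2 and 3 of LiPS-47 and of LiPS-57 (adjusted p up to 0.0610). The Mcm5 and Mcm7 differences of LiPS-57 from LiPS-50 were called without any 1 culture.

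Of the licensing factors, which load the helicase or hold it back, Cdt1 alone was called, in LiPS-57 against LiPS-50 (1.13-fold, adjusted p = 0.0481), and leaving out any 1 of 11 of the 12 cultures ended the call (adjusted p up to 0.164). Cdc6 had differences of 0.092, 0.25 and 0.14 and the geminin gene Gmnn, an inhibitor of CDT1, of 0.11, 0.073 and 0.11, none called.

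Pcna, which encodes the sliding clamp that holds DNA polymerase on its template, separated LiPS-50 most clearly in the S phase set. It read 11.35, 11.34 and 11.37 in LiPS-45, 11.40, 11.44 and 11.41 in LiPS-57, 11.37, 11.34 and 11.36 in LiPS-47 and 11.05, 11.13 and 11.08 in LiPS-50. The gap between the highest LiPS-50 culture and the lowest other culture was wider than the spread within any line. Its folds over LiPS-50 were 1.21, 1.26 and 1.21 (adjusted p = 0.00336, 0.00102 and 0.00291), and these calls were made without any 1 culture. A further probe set assigned to Pcna gave 11.35 ± 0.0134, 11.40 ± 0.037, 11.35 ± 0.0136 and 11.08 ± 0.0414 (SD, n = 3) in LiPS-45, LiPS-57, LiPS-47 and LiPS-50, with adjusted p of 0.00389, 0.00149 and 0.00340.

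Genes of nucleotide supply, the ribonucleotide reductase subunits Rrm1 and Rrm2 and the thymidylate synthase Tyms, were not called in any comparison. Rrm1 had differences from LiPS-50 of 0.18, 0.15 and 0.17 (adjusted p = 0.0727, 0.148 and 0.0918) and did not overlap with it. Rrm2 stayed within 0.029 either way of LiPS-50 (-0.029, -0.019 and 0.0061), and Tyms had differences of 0.080, 0.24 and 0.14 with an SE of 0.091.

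Among the genes that control entry into S phase, Cdc25a was called lower in LiPS-50 in all 3 comparisons. The cyclin E genes were called lower there in some comparisons and E2f1 in none. Ccne2, a cyclin that activates CDK2, read 7.29, 7.14 and 7.53 in LiPS-45, 7.39, 7.39 and 7.10 in LiPS-57, 7.26, 7.07 and 7.08 in LiPS-47 and 6.90, 6.50 and 6.94 in LiPS-50. It had the widest spread between cultures of one line and also the largest folds of the set, 1.45, 1.43 and 1.28 over LiPS-50 with an SE of 0.13 on the log2 scale. Only the first and the second were called (adjusted p = 0.0152, 0.0198 and 0.0991), and leaving out LiPS-50 replicate 2, the lowest culture, ended both (adjusted p = 0.0565 and 0.0717). So did leaving out LiPS-45 replicate 3 for the first (adjusted p = 0.0715) and LiPS-57 replicate 1 or 2 for the second (0.0757 and 0.0740).

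Cdc25a, a phosphatase that activates CDK2, was 9.36, 9.38 and 9.51 in LiPS-45, 9.51, 9.40 and 9.49 in LiPS-57, 9.49, 9.44 and 9.56 in LiPS-47 and 9.22, 9.17 and 9.20 in LiPS-50. LiPS-50 lay below every other culture, and the folds were 1.16, 1.21 and 1.23 (adjusted p = 0.0331, 0.0114 and 0.00565). The call against LiPS-45 was lost without LiPS-45 replicate 2 or 3 or without any 1 of the LiPS-50 cultures (adjusted p up to 0.133). The other cyclin E gene, Ccne1, was called against LiPS-57 (1.17-fold, adjusted p = 0.0267), a call lost without LiPS-57 replicate 1 or 2 or LiPS-50 replicate 1 or 3 (adjusted p up to 0.0913), and had adjusted p of 0.0554 and 0.0501 against LiPS-45 and LiPS-47.

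The kinase gene Cdk2 had differences of -0.0041, 0.033 and 0.083, none called. E2f1 was the S phase gene whose values ran the other way in all 3 comparisons. Its cultures read 7.88, 7.84 and 7.98 in LiPS-45, 8.03, 7.90 and 7.87 in LiPS-57, 8.15, 7.87 and 7.87 in LiPS-47 and 8.25, 8.02 and 8.11 in LiPS-50. LiPS-50 overlapped with LiPS-57 and LiPS-47 and lay above all LiPS-45 cultures. The differences of -0.22, -0.19 and -0.16 were not called (adjusted p = 0.119, 0.198 and 0.283), apart from the quantile-normalized value of LiPS-45 given above.

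**Figure D2:**
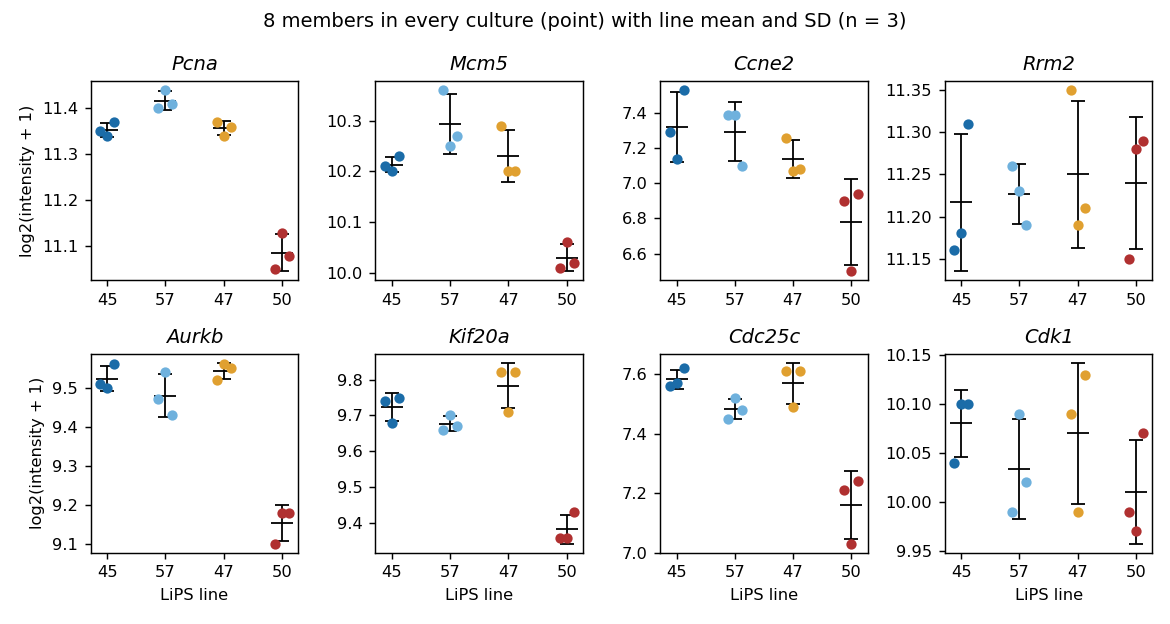
Log2(intensity + 1) of 8 genes in every culture (points) of the 4 lines on the x axis, with the line mean and SD (bars, n = 3); the y axes differ between panels and do not start at 0. For Pcna, Mcm5, Ccne2, Aurkb, Kif20a and Cdc25c the 3 LiPS-50 points lie below the other 9, while for Rrm2 and Cdk1 they overlap with them.

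In the mitosis set, the genes of the cyclin and CDK1 engine differed among themselves. Ccna2, the cyclin active from S phase into mitosis, read 10.27, 10.30 and 10.39 in LiPS-45, 10.37, 10.36 and 10.31 in LiPS-57, 10.42, 10.32 and 10.39 in LiPS-47 and 10.04, 10.06 and 10.08 in LiPS-50. The LiPS-50 cultures lay together below all others, and the folds were 1.20, 1.22 and 1.25 (adjusted p = 0.00687, 0.00411 and 0.00198). Ccnb2, a B-type cyclin, and Cdk1, its kinase partner, were not called, with differences of 0.031, 0.032 and 0.094 for Ccnb2 and of 0.071, 0.025 and 0.058 for Cdk1. The SE of these differences was 0.061 for Ccnb2 and 0.060 for Cdk1. For Cdk1 the cultures of the 4 lines overlapped. For Ccnb2 LiPS-50, at 9.98 to 10.08, overlapped with LiPS-45 and LiPS-57. The LiPS-47 cultures, at 10.12 to 10.19, lay above those of LiPS-50 and LiPS-45.

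The phosphatases that activate CDK1 were unlike each other in this test. Cdc25c read 7.56, 7.57 and 7.62 in LiPS-45, 7.45, 7.52 and 7.48 in LiPS-57, 7.61, 7.49 and 7.61 in LiPS-47 and 7.21, 7.03 and 7.24 in LiPS-50. Its folds were 1.34, 1.25 and 1.33 (adjusted p = 0.00118, 0.00670 and 0.00128), without overlap between LiPS-50 and the other lines. The folds of LiPS-45 and LiPS-47 were the largest of the mitosis set in their comparisons. Cdc25b had differences of 0.10, 0.21 and 0.17, none called (adjusted p = 0.405, 0.0769 and 0.153).

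Of the free mitotic kinases, Plk1, which drives centrosome maturation and mitotic entry, had folds over LiPS-50 of 1.16, 1.19 and 1.20 for LiPS-45, LiPS-57 and LiPS-47 (adjusted p = 0.0194, 0.00863 and 0.00749). Its LiPS-50 cultures read 10.04, 10.04 and 10.06, and the other 9 lay between 10.22 and 10.37. The first of these calls was lost without LiPS-45 replicate 1 or 3 or LiPS-50 replicate 1 or 2 (adjusted p up to 0.0691). Aurka, the kinase of the spindle poles, was called against LiPS-47 (1.13-fold, adjusted p = 0.0325), a call lost without any 1 culture of LiPS-47 or LiPS-50 (adjusted p up to 0.101).

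Subunits of the chromosomal passenger complex, which corrects the attachment of chromosomes to the spindle, were called in part. Aurkb, its kinase, read 9.51, 9.50 and 9.56 in LiPS-45, 9.47, 9.54 and 9.43 in LiPS-57, 9.52, 9.56 and 9.55 in LiPS-47 and 9.10, 9.18 and 9.18 in LiPS-50. The gap to LiPS-50 was again wider than the spread of a line, and the folds were 1.29, 1.25 and 1.31 (adjusted p = 0.000815, 0.00194 and 0.000536). Incenp, the scaffold that activates the kinase, was 9.06, 9.15 and 9.14 in LiPS-45, 9.06, 9.18 and 9.12 in LiPS-57, 9.09, 9.11 and 9.17 in LiPS-47 and 8.87, 8.76 and 8.82 in LiPS-50. Its LiPS-50 cultures did not overlap with the others either, with folds of 1.23, 1.23 and 1.23 (adjusted p = 0.00446, 0.00440 and 0.00349).

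The targeting subunit genes of the same complex behaved less evenly. Cdca8, which encodes borealin, had folds of 1.19, 1.12 and 1.28 (adjusted p = 0.0385, 0.182 and 0.00684); the first call was lost without LiPS-45 replicate 2 or 3, LiPS-47 replicate 2, LiPS-50 replicate 1 or 3 or LiPS-57 replicate 3 (adjusted p up to 0.141). Birc5, which encodes survivin, had differences of 0.031, -0.058 and 0.14 from LiPS-50, none called.

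Spindle checkpoint genes delay anaphase until all chromosomes are attached. Mad2l1 was higher than in LiPS-50 by 1.24-fold in LiPS-45 and 1.19-fold in LiPS-57 (adjusted p = 0.00782 and 0.0243), with an uncalled 1.14-fold in LiPS-47 (adjusted p = 0.0817). Bub1b was called in LiPS-45 and LiPS-47 (1.15-fold and 1.17-fold, adjusted p = 0.0198 and 0.0105), and its LiPS-50 cultures read 9.57, 9.58 and 9.59 against 9.70 to 9.82 elsewhere. Removing 1 culture ended the Mad2l1 call of LiPS-57 (any LiPS-57 culture or LiPS-50 replicate 1, adjusted p up to 0.0979) and the Bub1b call of LiPS-45 (LiPS-45 replicate 1 or 3, LiPS-50 replicate 1 or 2, up to 0.0696). Bub1 and Cdc20, the activator of the ligase that the checkpoint restrains, were not called, with differences of 0.22, 0.16 and 0.23 for Bub1 and 0.12, 0.11 and 0.16 for Cdc20.

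Of the genes for chromosome structure, Mki67, which encodes the Ki-67 coat of mitotic chromosomes and is a common marker of dividing cells, was higher in LiPS-45 and LiPS-47 than in LiPS-50 (1.24-fold and 1.27-fold, adjusted p = 0.0190 and 0.0112). In LiPS-57 it was 1.18-fold above LiPS-50 without a call (adjusted p = 0.0638). Its LiPS-50 cultures read 9.45, 9.15 and 9.23 and overlapped with LiPS-57, at 9.65, 9.42 and 9.49. The call of LiPS-45 was lost without LiPS-45 replicate 1 or 3 or LiPS-50 replicate 2 or 3 (adjusted p up to 0.0770). Top2a, the topoisomerase that untangles sister DNA, had differences of 0.18, 0.13 and 0.12, none called. A further probe set assigned to Top2a averaged 3.66, 3.38, 3.49 and 3.32 in LiPS-45, LiPS-57, LiPS-47 and LiPS-50, below the 40th percentile of 5.215. Its differences from LiPS-50 of 0.33, 0.062 and 0.17 were not called either.

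Both kinesin motors were called in all 3 comparisons. Kif11, which pushes the spindle poles apart, read 9.56, 9.48 and 9.65 in LiPS-45, 9.44, 9.42 and 9.38 in LiPS-57, 9.64, 9.38 and 9.53 in LiPS-47 and 9.14, 9.18 and 9.21 in LiPS-50. Its folds over LiPS-50 were 1.31, 1.18 and 1.27 (adjusted p = 0.00304, 0.0426 and 0.00593). The call of LiPS-57 was lost without any 1 culture of LiPS-57 or LiPS-50, LiPS-45 replicate 1 or LiPS-47 replicate 3 (adjusted p up to 0.123).

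Kif20a, a motor of the central spindle and of cytokinesis, was 9.74, 9.68 and 9.75 in LiPS-45, 9.66, 9.70 and 9.67 in LiPS-57, 9.82, 9.71 and 9.82 in LiPS-47 and 9.36, 9.36 and 9.43 in LiPS-50. No culture of another line came near these LiPS-50 values, and the folds were 1.27, 1.23 and 1.32 (adjusted p = 0.00154, 0.00377 and 0.000483).

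**Figure D3:**
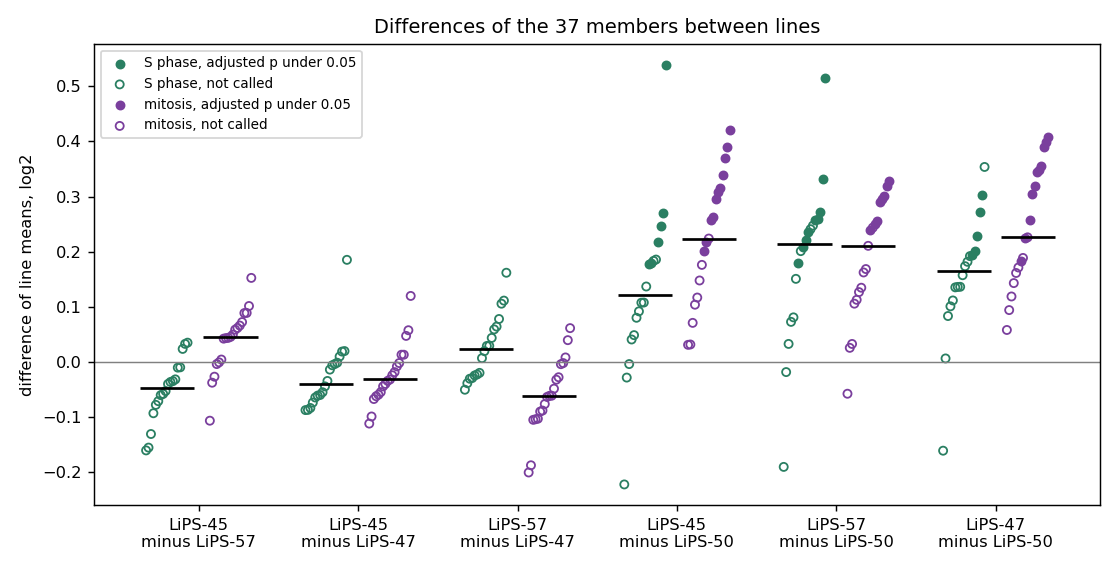
Difference of line means on the log2 scale (y axis) for each of the 37 genes in the 6 pairs of lines (x axis), S phase in green and mitosis in purple; filled points have an adjusted p under 0.05 in limma's test and black bars are medians. Points in the 3 pairs without LiPS-50 are all open and at most 0.20 from 0, and filled points occur only in the 3 pairs with LiPS-50, all above 0.

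Between the lines other than LiPS-50, 0 members of either set were called. LiPS-45 and LiPS-57, the competent lines, differed in 0 of 18 S phase and 0 of 19 mitosis genes, beside 0.266% of all probe sets, and 1 and 0 had an unadjusted p under 0.05. For LiPS-45 against LiPS-47 the counts were 0 and 0, beside 0.0622% of all probe sets, with 0 and 0 at an unadjusted p under 0.05, and for LiPS-57 against LiPS-47 they were 0 and 0, beside 0.159%, with 0 and 2. Over all 19938 genes, 1558, 1728 and 1365 had an unadjusted p under 0.05 in these pairs, in the same order. The median differences in these pairs were small. For LiPS-45 minus LiPS-57 they were -0.047 in the S phase set and 0.045 in the mitosis set, and for LiPS-57 minus LiPS-47 they were 0.024 and -0.062, so the sets differed in sign in both. For LiPS-45 minus LiPS-47 they were -0.040 and -0.032.

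The largest single differences in these pairs were those of Tyms, at -0.16 for LiPS-45 minus LiPS-57, Ccne2, at 0.19 for LiPS-45 minus LiPS-47, and Birc5, at -0.20 for LiPS-57 minus LiPS-47. The lowest adjusted p over both sets and these 3 pairs was 0.476, for Birc5. Its cultures read 8.32, 8.35 and 8.21 in LiPS-57 and 8.44, 8.51 and 8.53 in LiPS-47, without overlap. Missing the threshold does not show that these lines have the same levels.

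A test for any difference among the 4 lines, limma's moderated F-test, called 6 of 18 S phase and 11 of 19 mitosis genes, beside 14.9% of all probe sets. The S phase count was 1 without any 1 of the LiPS-50 cultures, 2 without LiPS-57 replicate 1 and 3 without LiPS-57 replicate 2 or 3. The mitosis count was 7 without any 1 of the LiPS-50 cultures.

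The competent lines together were compared with the other lines together, which is the question of the series. Of 18 S phase genes 0 were called, and of 19 mitosis genes 0, beside 0% of all 28939 probe sets, in limma's test that treats lines as random blocks. At an unadjusted p under 0.05 there were 3 S phase and 1 mitosis genes, against 1565 of all 19938 genes. The lowest p were those of Ccne2 (0.0183) and Mad2l1 (0.0195), both with an adjusted p of 0.648. The median difference of competent minus other lines was 0.086 in the S phase set and 0.092 in the mitosis set, and -0.011 over all genes. With the line means as fixed effects, which takes the spread between cultures and not that between lines, 2 genes of each set were called higher in the competent lines, Pcna and Ccne2 (1.12-fold and 1.27-fold, adjusted p = 0.0186 and 0.0479) and Aurkb and Mad2l1 (1.11-fold and 1.14-fold, adjusted p = 0.0395 and 0.0406). The share of all probe sets called in that fit is not given here. LiPS-50 had the lowest mean for all of these genes. LiPS-47 averaged 11.36 for Pcna, between LiPS-45 (11.35) and LiPS-57 (11.42), and 9.54 for Aurkb, above both (9.52 and 9.48). It lay below both for Ccne2 (7.13 against 7.32 and 7.30) and Mad2l1 (10.65 against 10.77 and 10.71).

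The mean over the members of each set places the lines in order. The S phase set averaged 9.83 ± 0.0275 in LiPS-57, 9.80 ± 0.0352 in LiPS-47, 9.78 ± 0.0472 in LiPS-45 and 9.65 ± 0.0272 in LiPS-50 (SD, n = 3 cultures). The mitosis set averaged 9.59 ± 0.0301 in LiPS-47, 9.57 ± 0.0344 in LiPS-45, 9.53 ± 0.0223 in LiPS-57 and, lowest, 9.35 ± 0.0239 in LiPS-50. In both sets the cultures of LiPS-50 lay below all others, and the ranges of the other 3 lines overlapped, apart from LiPS-57 and LiPS-47 in the mitosis set, at 9.51 to 9.55 and 9.56 to 9.61. LiPS-47, a line without competence, had a mean between those of the competent lines in the S phase set and above both in the mitosis set.

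Cultures of the same line also varied, and the mean deviations of the S phase and mitosis sets from the line mean had the same sign in 12 of 12 cultures. Some lay close to 0: for S phase 0.000631 in LiPS-47 replicate 3 and -0.00164 in LiPS-50 replicate 1. For mitosis the mean was 0.00238 in LiPS-57 replicate 2. Deviations from a line mean cancel out within the line, so the signs are not independent. The fibroblast markers deviated to the opposite side in 7 of 12 cultures and to the same side in 5. LiPS-45 replicate 3 had 16 of 18 S phase and 16 of 19 mitosis genes above its line mean and 2 of 31 fibroblast markers. LiPS-47 replicate 2 was the reverse, with 3 of 18, 5 of 19 and 29 of 31. In LiPS-50 replicate 3 all lists lay on the high side, with 12 of 18, 15 of 19 and 25 of 31, and so they did in LiPS-47 replicate 1, with 12 of 18, 13 of 19 and 28 of 31. LiPS-57 replicate 3 had 3 of 18 and 3 of 19, with 13 of 31 fibroblast markers. With the line means removed, the mean Pearson r between pairs of genes over the 12 arrays was 0.194 within the S phase set, 0.174 within the mitosis set and 0.209 between the sets. It was 0.00421 over all pairs of genes, -0.147 between S phase genes and fibroblast markers and -0.221 between mitosis genes and fibroblast markers. These correlations are a description, since genes of one array share its RNA and its scaling.

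**Figure D4:**
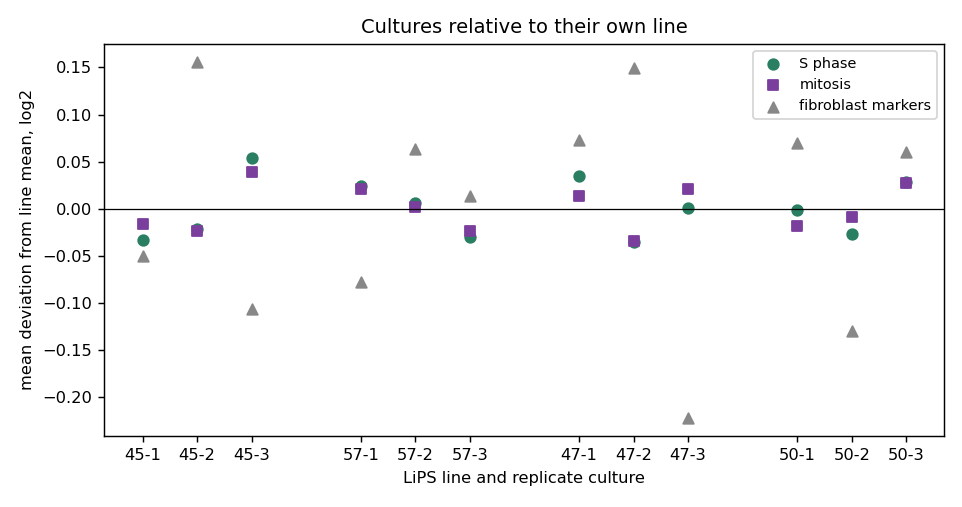
Mean deviation of each culture from its own line mean, on the log2 scale (y axis), for S phase genes (circles), mitosis genes (squares) and fibroblast markers (triangles); the x axis names line and replicate culture. The S phase and mitosis symbols lie close together in every culture, and in LiPS-45 replicate 3 and LiPS-47 replicate 2 the triangles lie on the other side of 0, as in 7 of the 12 cultures, while in LiPS-50 replicate 3 they lie on the same side.

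Wider lists of the same processes, taken from textbook roles, were looked at in the same way. Of 49 other S phase genes measured, 18, 18 and 15 were higher in LiPS-45, LiPS-57 and LiPS-47 than in LiPS-50 and 1, 1 and 1 lower, beside 8.30%, 7.48% and 7.31% of all probe sets called higher and 8.18%, 8.16% and 8.48% called lower. The medians were 0.16, 0.15 and 0.15. Of 75 other mitosis genes, 29, 13 and 20 were higher and 2, 4 and 3 lower, with medians of 0.17, 0.12 and 0.16. The counts of both directions together moved with single cultures: without LiPS-45 replicate 3 they were 9 and 19 against 19 and 31, without LiPS-50 replicate 1 they were 12 for S phase in LiPS-45, 9 for S phase in LiPS-47 and 15 for mitosis in LiPS-47, without LiPS-47 replicate 1 or 3 the S phase count was 9 against 16, and without LiPS-57 replicate 1, 2 or 3 it was 10, 10 and 12 against 19.

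The 5 genes of the S phase list with the smallest F-test p were Pola1, Pold3, Cdc7, Rfc3 and E2f7. Pold3, a subunit of DNA polymerase delta, read 8.89, 9.02 and 9.01 in LiPS-50 and 9.30 to 9.49 elsewhere, with folds of 1.36, 1.36 and 1.33 (adjusted p = 0.00114, 0.00131 and 0.00175). Rfc3, part of the loader of the clamp, had folds of 1.22, 1.21 and 1.29 and E2f7, an E2F family repressor, of 1.24, 1.32 and 1.27, with the highest adjusted p of these at 0.00733. Cdc7, the kinase that fires origins, had folds of 1.27, 1.29 and 1.14 (adjusted p = 0.00203, 0.00172 and 0.0476), the last of which was lost without any 1 culture other than LiPS-45 replicate 3 (adjusted p up to 0.153).

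Pola1 ran the other way. This catalytic subunit of the primase polymerase read 8.86, 8.81 and 8.95 in LiPS-45, 8.90, 8.63 and 8.65 in LiPS-57, 8.85, 8.61 and 8.71 in LiPS-47 and 9.45, 9.46 and 9.56 in LiPS-50. LiPS-50 lay above all other cultures, and Pola1 was 1.53-fold, 1.69-fold and 1.70-fold higher there (adjusted p = 0.000510, 0.000134 and 0.000105).

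The 5 genes of the mitosis list were Pttg1, Cenpi, Ncapd2, Smc1a and Espl1. Ncapd2, a condensin subunit, read 9.51, 9.42 and 9.53 in LiPS-50 and 9.86 to 10.13 elsewhere, with folds of 1.54, 1.34 and 1.38 (adjusted p up to 0.000567). Espl1, the protease separase that cuts the link between sister chromatids, had folds of 1.35, 1.31 and 1.29 (adjusted p up to 0.00138). Cenpi, a centromere protein, was 1.59-fold, 1.63-fold and 1.84-fold higher in LiPS-50, and Smc1a, a cohesin subunit, 1.36-fold, 1.35-fold and 1.36-fold (adjusted p up to 0.000530).

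Pttg1, the securin that holds separase in check, also separated lines other than LiPS-50. It read 7.71, 7.77 and 7.76 in LiPS-45, 7.28, 7.32 and 7.32 in LiPS-57, 7.59, 7.79 and 7.71 in LiPS-47 and 7.18, 7.07 and 7.09 in LiPS-50. LiPS-57 lay between LiPS-50 and the other lines without overlap, 1.36-fold below LiPS-45 (adjusted p = 0.00955) and 1.31-fold below LiPS-47 (adjusted p = 0.0353). The call against LiPS-45 was lost without LiPS-45 replicate 2 or 3 or LiPS-57 replicate 1 (adjusted p up to 0.0607), and that against LiPS-47 without any 1 culture other than LiPS-47 replicate 1 (adjusted p up to 0.182). Cdca3, chosen after its values were seen, was 1.26-fold above LiPS-57 in LiPS-45 (adjusted p = 0.0316), a call lost without any 1 culture of either line (adjusted p up to 0.181).

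The genes of these wider lists called higher in LiPS-50 all lie on the X chromosome, except that other settings also called autosomal Kif18b, Ckap2, Cdc23 or Ticrr (adjusted p = 0.0205 to 0.0494), and no member of the sets is X-linked. The lists hold 5 X-linked genes, Pola1, Cenpi, Smc1a, Kif4 and Stag2, of which 3, 5 and 4 were called higher in LiPS-50 than in LiPS-45, LiPS-57 and LiPS-47. Among the 156 other genes, members included, 64, 48 and 51 were called lower in LiPS-50 and 0, 0 and 0 higher. Over all 19106 autosomal genes, 9.36%, 8.89% and 8.7% were called lower in LiPS-50 and 8.62%, 8.23% and 8.82% higher, and over all 739 X-linked genes 2.84%, 1.62% and 2.3% lower and 35.7%, 38% and 36.9% higher. The X chromosome as a whole stood apart too: over the X-linked genes the median difference was -0.157, -0.148 and -0.144 and 75.9%, 75.0% and 71.2% lay below 0, against medians of -0.0087, -0.0027 and 0.0119 over the autosomal genes. Kif4, a chromosome-bound kinesin, and Stag2, a cohesin subunit, were chosen after their values were seen. The Kif4 calls against LiPS-57 and LiPS-47 and the Stag2 call against LiPS-57 were lost without LiPS-50 replicate 3 (adjusted p = 0.101, 0.126 and 0.0839), without some other single cultures, and with arrays centred on their median (0.0777, 0.0808 and 0.0797).

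**Figure D5:**
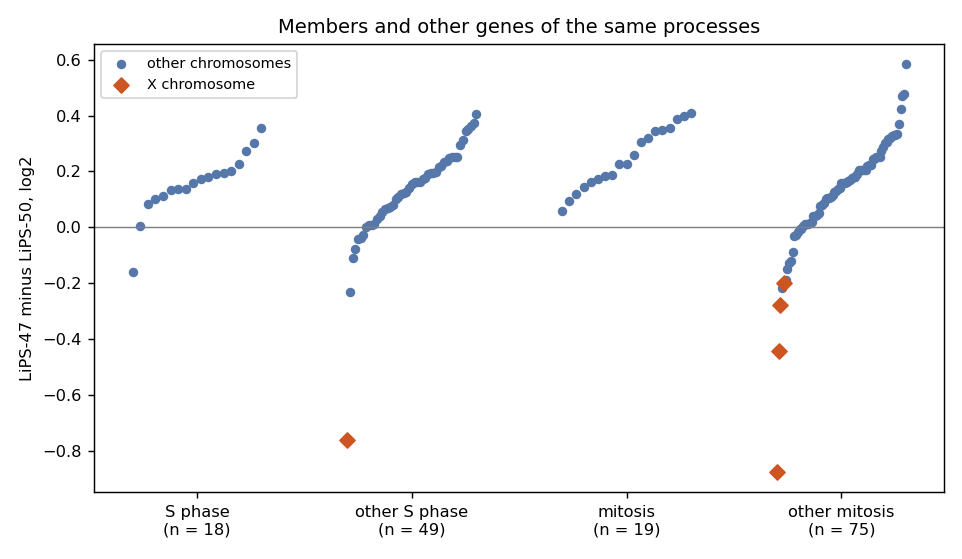
Difference LiPS-47 minus LiPS-50 on the log2 scale (y axis) for the measured members and the other genes of the same processes (x axis), each list sorted by value; diamonds are genes on the X chromosome. Most autosomal points lie above 0, and the 5 diamonds lie at -0.20 or below.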

How the data were processed

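Per the labels' protocols, whole-transcript amplified RNA of 12 cultures was hybridised to Affymetrix arrays. The authors deposited linear probe set intensities, 1 per probe set and array, and the submitters' processing notes name GCOS 1.4. For probe summary, background correction and normalization, the authors' method is not given in the sources used here.

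Of 35556 probe sets in the table, 6617 with identifiers below the lowest annotated one were taken as controls, from their numbering alone, and left out, which leaves 28939. Of these 21789 list 1 gene, 1621 several and 5529 none. Symbols were updated through a RefSeq table (GRCm38.p6), which matched 19856 of 19938 genes. Array quartiles of log2 values differed by at most 0.1116, so the scale was kept.

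Values were turned into log2(intensity + 1) and tested two-sided by lmFit and eBayes of limma 3.58.1 under R 4.3.3 (Benjamini-Hochberg adjustment over all 28939 probe sets, threshold 0.05). Pairs of lines and the F-test share 1 fit of line means to 12 arrays (8 residual degrees of freedom, 4.06 from the prior). For competence, lines entered as random blocks (consensus correlation 0.183). Scripts were tested on simulated data.

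Alternatives were median centring, quantile normalization, a pseudocount of 16, removal of probe sets below the 40th percentile, the mean of a gene's probe sets, all probe sets, each pair fitted alone (for competence, line means as fixed effects), a replicate block, a trend in eBayes and leaving out each culture. The members and lists were chosen with earlier results of these data known. Values in every culture are given for the 6 genes of each set with the smallest F-test p, and for E2f1, Plk1, Bub1b, Mki67 and Birc5 in part, chosen after their values were seen. The 5 genes of each wider list, and up to 3 markers per list, with the smallest F-test p may be named.

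The brightest Pcna probe set is numbered among probe sets of genes on chromosome 19, unlike Pcna itself, so the values of the further Pcna probe set are given beside it.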

Additional observations from a re-analysis of the deposited data

How the results depend on the processing

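All 50 called differences between a line and LiPS-50 kept their direction under the 21 alternatives; 33 were called in every alternative that keeps all cultures, 30 without any 1 culture and 29 in both. The replicate numbers do not pair the cultures (r over 0.1 in 4 of 18 same-numbered pairs, from -0.203 to 0.128). A replicate block gave 5, 8 and 4 S phase and 10, 9 and 10 mitosis genes called against LiPS-50 in LiPS-45, LiPS-57 and LiPS-47, 0 and 0 for competence and in the other pairs, and 4 and 9 in the F-test, so no count moved by over 1.5 times; it ended the calls of Mcm5 and Cdca8 in LiPS-45, Cdt1 in LiPS-57 and Mcm4 and Aurka in LiPS-47. The F-test called 11 S phase genes with a trend in eBayes. Line means as fixed effects called 2 S phase and 2 mitosis genes for competence. Fitting the pair alone gave 3 S phase and 7 mitosis genes for LiPS-45 and 2 S phase genes for LiPS-47, where fewer arrays estimate the spread. The S phase count of LiPS-47 was 9 with a pseudocount of 16, 9 without dim probe sets and 10 with the trend. Centring moved the S phase medians of LiPS-45, LiPS-57 and LiPS-47 against LiPS-50 to 0.17, 0.26 and 0.20 and the mitosis medians to 0.27, 0.26 and 0.26; that of LiPS-45 in mitosis was 0.18 with quantile normalization and 0.26 with the mean of probe sets. Top2a is the only mitosis gene with several probe sets, so the last value differs through Top2a and its dim further probe set. The cause of the other shifts was not tested. Leaving out 1 culture gave S phase counts of 1 to 7, 4 to 9 and 2 to 5 for LiPS-45, LiPS-57 and LiPS-47, mitosis counts of 7 to 11, 6 to 9 and 10 to 11, and F-test counts of 1 to 6 and 7 to 11. The mitosis medians then ranged from 0.20 to 0.26, 0.18 to 0.22 and 0.22 to 0.26. In the wider lists, a trend in eBayes called 37 and 26 other mitosis genes in LiPS-47 and LiPS-57 and the pair alone 12 and 7 other S phase genes in LiPS-45 and LiPS-47. The number of arrays, 3 per line, limits the precision.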
